A study of Mus musculus with 3 samples.

Results

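The cells compared here carried the most and the least GFP transcript in a library of GFP-sorted mesenchymal cells from mouse mandibular molars at postnatal day 6 (genotype Cxcl12-GFP/+, called Cxcl12-GFP P6). GFP-high cells had at least 15 GFP UMIs (unique molecular identifiers, 1 per captured transcript) per 10000 UMIs of the cell, and GFP-low cells had under 2. Cells were taken from barcodes with at least 500 genes, at most 15% mitochondrial UMIs and no UMI of the immune gene Ptprc, the endothelial gene Pecam1 or the epithelial gene Epcam. Of 7528 barcodes in this library, and 15912 in all 3 libraries of the study, 7049 cells passed. They held 947 GFP-high cells (13.4%), 1266 GFP-low cells (18%) and 4836 cells between the limits.

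Cxcl12 encodes a chemokine that stromal cells secrete and that acts through the receptors Cxcr4 and Ackr3. In bone marrow it marks stromal cells that support blood stem cells. The Cxcl12-GFP allele known under this name is a knock-in, so GFP transcript is made from the Cxcl12 locus and only the other allele makes Cxcl12. In a growing molar the dental papilla gives rise to the pulp and the dentin-forming odontoblasts. The dental follicle around it gives rise to the periodontal ligament, the cementum and part of the alveolar bone.

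Each of the study's groups was 1 library, so no difference below has a replicate error or a test. Intervals in parentheses are exact 95% intervals for counting error only, and they do not cover the spread between cells or animals. The labels do not say how many animals were pooled. GFP-high and GFP-low are 2 ends of 1 library chosen by the reporter, so their GFP and Cxcl12 levels are a description. The other libraries held tdTomato+ cells of Cxcl12-creER mice with an R26R tdTomato reporter at day 6 (Cxcl12-creER P6) and, at day 25, GFP+, tdTomato+ and doubly positive cells of mice with Col1a1-GFP, Cxcl12-creER and R26R tdTomato (called P25). In the P25 library GFP reports the collagen gene Col1a1. The Cxcl12-GFP P6 library shared 0 cell barcodes with Cxcl12-creER P6 and 1 with P25.

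GFP-high cells held 7217491 UMIs and GFP-low cells 12190679. Median depth was 7308 UMIs and 2864 genes per GFP-high cell, against 8732.5 UMIs and 3117.5 genes per GFP-low cell. The median mitochondrial share was 3.23% in GFP-high and 3.07% in GFP-low cells. Both groups carried the fibroblast and osteogenic collagen gene Col1a1 (3860 CPM, meaning UMIs per 1000000 summed UMIs of the group, in GFP-high and 7188 CPM in GFP-low cells) and the mesenchymal receptor gene Pdgfra (183 and 131 CPM). Summed endothelial markers stood at 23.4 CPM in GFP-high and 23.1 CPM in GFP-low cells, and immune markers at 30.8 and 34.1 CPM. Summed dental epithelium markers reached 204 and 1813 CPM, mural markers 520 and 1342 CPM, Schwann or glia markers 60.0 and 143 CPM and erythroid markers 3.05 and 157.5 CPM.

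Transcripts that the genotype label does not name were present as well, before any comparison is made. A UMI of the feature iCreER, an inducible recombinase, was found in 397 cells and one of tdT-WPRE in 1254. Without the first set of cells 218 genes were 2-fold higher in GFP-high cells and 287 lower, and without both sets 233 and 295, against 206 and 277 with all cells. No named gene changed its sign in either case, and the Cxcl12 log2 ratio was 1.99 and 2.0, against 1.95.

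GFP transcript, listed as its own feature, stood at 2178 CPM in GFP-high cells (2144 to 2212) and 84.2 CPM in GFP-low cells (79.2 to 89.6). The median GFP-high cell held 15 GFP UMIs and the median GFP-low cell 1, and 480 GFP-low cells held none. At the upper limit, 136 cells lay between 15 and 16 GFP UMIs per 10000 and 150 between 14 and 15, with a median of 12 and 11 GFP UMIs. At the lower limit, 601 cells lay between 1 and 2 and 569 between 2 and 3, with a median of 1 and 2 GFP UMIs. A cell near either limit could thus change sides with 1 UMI.

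Cxcl12 itself (chr6:117168535-117181367, plus strand, GRCm38, ENSMUSG00000061353) followed the reporter without matching its range. It stood at 533 CPM in GFP-high cells (3850 UMIs) and 137 CPM in GFP-low cells (1671 UMIs), 3.89-fold apart (3.67 to 4.12). A Cxcl12 UMI was found in 90.4% of GFP-high cells (88.3 to 92.2) and in 64.1% of GFP-low cells (61.3 to 66.7). Over 5 steps of the reporter (under 2, 2 to 5, 5 to 10, 10 to 15 and at least 15 GFP UMIs per 10000) Cxcl12 stood at 137, 188, 251, 342 and 533 CPM. GFP-low cells were sorted as GFP+ cells according to the labels. No background level of Cxcl12 was set, and the haemoglobin-led cluster 16 and the dental epithelium-like cluster 17 held 180.3 CPM (98.6 to 302) and 88.4 CPM (38.2 to 174) of it, so a Cxcl12 UMI in a GFP-low cell is not read as expression. Across the 7049 cells the rank correlation of GFP and Cxcl12 per 10000 UMIs was 0.385, as a description over cells that share 1 library and its depth.

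The 250 bases before the annotated start of Cxcl12 are shown because both the gene and the reporter are read out from this locus (RefSeq, GRCm38.p6, chr6:117168285-117168534, plus strand).
Cxcl12: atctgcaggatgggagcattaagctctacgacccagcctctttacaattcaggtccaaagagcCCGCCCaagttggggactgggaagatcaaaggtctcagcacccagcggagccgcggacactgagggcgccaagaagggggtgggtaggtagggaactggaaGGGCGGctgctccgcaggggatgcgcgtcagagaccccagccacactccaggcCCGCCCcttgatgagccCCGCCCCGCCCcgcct
Capitals mark the GC box letters GGGCGG on either strand, with 5 matches, of which the last pair overlaps by a base. The stretch was 64.4% G or C, against a median of 52.0% over 27025 promoters of the same length. The GC box letters stood in 32.9% of all those promoters, and in 62.3% of the 5207 that belong to genes tested below. Neither the TATA box letters TATAAA nor the CCAAT box letters CCAAT occurred in this window.

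The cells fell into 18 clusters made without GFP, Cxcl12, mitochondrial and ribosomal genes, and GFP-high cells were spread over them unevenly. Cluster 0 (758 cells) held 400 GFP-high cells, which is 52.8% of the cluster (49.1 to 56.4) and 42.2% of all GFP-high cells. Only 22 of its cells were GFP-low (2.90%). Its leading genes were Cldn10, Trf, Irx5, Dmkn, Stc2, Fjx1, Sod3, Clu, Pamr1 and Slc20a2, and it was papilla or pulp-like by 5 of 18 markers (Enpp6, Rspo4, Notch3, Cldn10 and Slc20a2). This was not particular to cluster 0. Clusters 1 and 9 also had 5 of the 18 markers 2-fold above the median of the other clusters. Clusters 6, 7 and 12 had 4, and clusters 13 and 14 had 7 and 8. Cluster 0 also had the highest Cxcl12 level of the 18 clusters, at 667 CPM.

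Outside cluster 0 the GFP-high share was 20% in cluster 16 (5 of 25 cells, 6.83 to 40.7), which haemoglobin genes lead and which had 1120 CPM of GFP at a median of 2810 UMIs. It was 17.7% in cluster 7 (led by Irx5, Stc2 and Nfe2l3), 16.8% in cluster 8 (Gldn, Lect1, Cntn6) and 13.6% in cluster 1 (Tac1, Smoc2, Nell1). GFP-low cells took the larger share of the follicle-side and cycling clusters, but not of these alone. Cluster 2, dental follicle-like with Acta2, Bmp3 and Moxd1 in the lead, was 2.84% GFP-high and 30.6% GFP-low. Cluster 5 (Acta2, Mmp13, Cxcl14) was 4.08% GFP-high and 29.7% GFP-low, and cluster 10 (Lpl, Mmp13, Cxcl5) was 10.2% and 27.6%. Cluster 10 was mixed by its markers. It had 10 of 12 osteoblast or cementoblast markers and 7 of 10 periodontal ligament markers 2-fold above the median of the other clusters. The same held for 8 of 11 dental follicle markers. Of the 2 clusters led by cycling genes, cluster 11 held 2 GFP-high and 56 GFP-low cells of 247, and cluster 12 held 2 and 114 of 224. Both cycling clusters were deeper than the library, with medians of 11640 and 14995 UMIs per cell, against 8291 over all cells. GFP-low cells also outnumbered GFP-high cells in cluster 3 (8.99% GFP-high and 14.1% GFP-low) and cluster 4 (7.78% and 13.8%). The same held for cluster 6 (8.82% and 19.05%), cluster 9 (8.49% and 22.5%) and the small clusters 14, 15 and 17. GFP-high cells were the more numerous in clusters 0, 1, 7, 8 and 13, and cluster 16 held 5 of each.

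**Figure D1:**
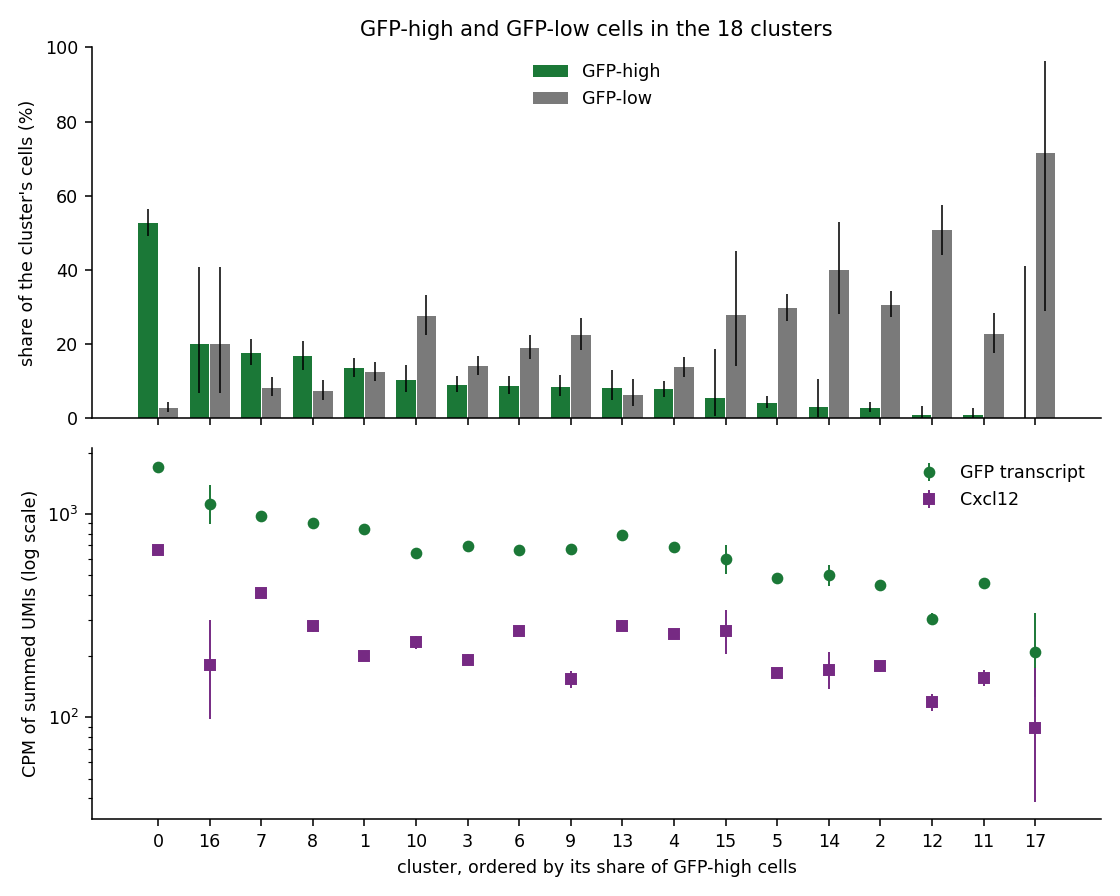
Share of GFP-high (green) and GFP-low (grey) cells in each of the 18 clusters (top, percent with exact 95% binomial intervals) and the summed level of GFP transcript and Cxcl12 in the same clusters (bottom, CPM on a log axis with exact 95% Poisson intervals). Cluster 0 stands apart with 52.8% GFP-high cells, and clusters 11 and 12 held 2 GFP-high cells each.

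The number of GFP UMIs per Cxcl12 UMI was not the same in all clusters. It was 2.55 in cluster 0 (2.45 to 2.65) and between 2.39 and 2.94 in the other clusters of over 200 cells, except clusters 1, 3, 8 and 9. There it was 4.22 (3.94 to 4.52), 3.63 (3.39 to 3.89), 3.23 (3.00 to 3.48) and 4.37 (3.91 to 4.89). Cluster 16 had 6.21 (3.51 to 11.8), from 14 Cxcl12 UMIs. The labels give neither the type of the GFP allele nor whether animals of another genotype were pooled, so the ratio is given as a ratio of transcripts and not of alleles. Clusters 1 and 3 had 200.3 and 192 CPM of Cxcl12 and 845 and 699 CPM of GFP. Cells with an iCreER UMI made up 14.2%, 13.2%, 12.6% and 5.31% of clusters 1, 3, 8 and 9, and 0.264% of cluster 0. Without those cells the ratios were 4.33, 3.73, 3.27 and 4.43. Cells of the same origin with no iCreER UMI are not removed by this, and the part of such cells in the ratios was not tested.

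Of 6722 genes with at least 20 CPM and 50 UMIs in the higher group (GFP and Cxcl12 left out), 206 were at least 2-fold higher in GFP-high cells (3.06%) and 277 at least 2-fold lower (4.12%). The iCreER feature is one of the 206. The median log2 ratio over all of them was 0.04. Here and below, log2 ratios are GFP-high over GFP-low with 1 CPM added to both.

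The genes furthest above in GFP-high cells were mostly those that lead cluster 0. Trf, which encodes the iron carrier transferrin, stood at 1433 CPM in GFP-high and 126 CPM in GFP-low cells, 11.4-fold higher (10.8 to 12.1). Cldn10, a tight-junction claudin, stood at 473 and 41.1 CPM, 11.5-fold higher (10.5 to 12.7). Dmkn, a secreted protein known from skin, had the largest ratio of the named genes apart from GFP itself, 89.4 against 5.0 CPM (17.9-fold, 13.7 to 23.6).

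A Cldn10 UMI was found in 61.8% of GFP-high cells (58.6 to 64.9) and 19% of GFP-low cells (16.8 to 21.2). At a common depth of 3000 UMIs per cell the shares were 51.1% and 8.02%, with 9 GFP-high and 32 GFP-low shallower cells left out. In 89 endothelial barcodes of the same library (Pecam1 at 2 UMIs or more, median 7924 UMIs), which should lack Cldn10, the share was 12.4%, and 2.30% after thinning. Trf UMIs were less specific, with 78.1% of GFP-high and 40.4% of GFP-low cells against 49.4% of the endothelial barcodes. After thinning, the shares in GFP-low cells and endothelial barcodes were 21.2% and 26.4%. The Trf share in GFP-low cells was thus not above that of the endothelial barcodes, and a Trf UMI there is not read as expression. Whether the endothelial barcodes held Trf RNA of their own was not tested.

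The other 12 of the 15 highest genes had log2 ratios between 2.33 and 3.05. They were Sod3 (extracellular superoxide dismutase), Dll1 (a Notch ligand), the Iroquois factor Irx5, Pamr1, Nebl (an actin-binding nebulette) and Enpp6 (a choline phosphodiesterase). The list continued with the small leucine-rich proteoglycan Prelp, the phosphate transporter Slc20a2, the hormone-like Stc2, the nuclear receptor Nr0b1, Fjx1 and the glutamine synthetase Glul. Slc20a2 stood at 509 CPM in GFP-high and 82.8 CPM in GFP-low cells (6.15-fold, 5.73 to 6.6), and Irx5 at 224 and 28.1 CPM (7.98-fold, 7.10 to 8.99). Without cluster 0 the ratios of Dmkn, Trf and Cldn10 were 2.25, 2.12 and 1.83 on the log2 scale, against 3.91, 3.5 and 3.49 with it, and 97 genes were 2-fold higher.

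**Figure D2:**
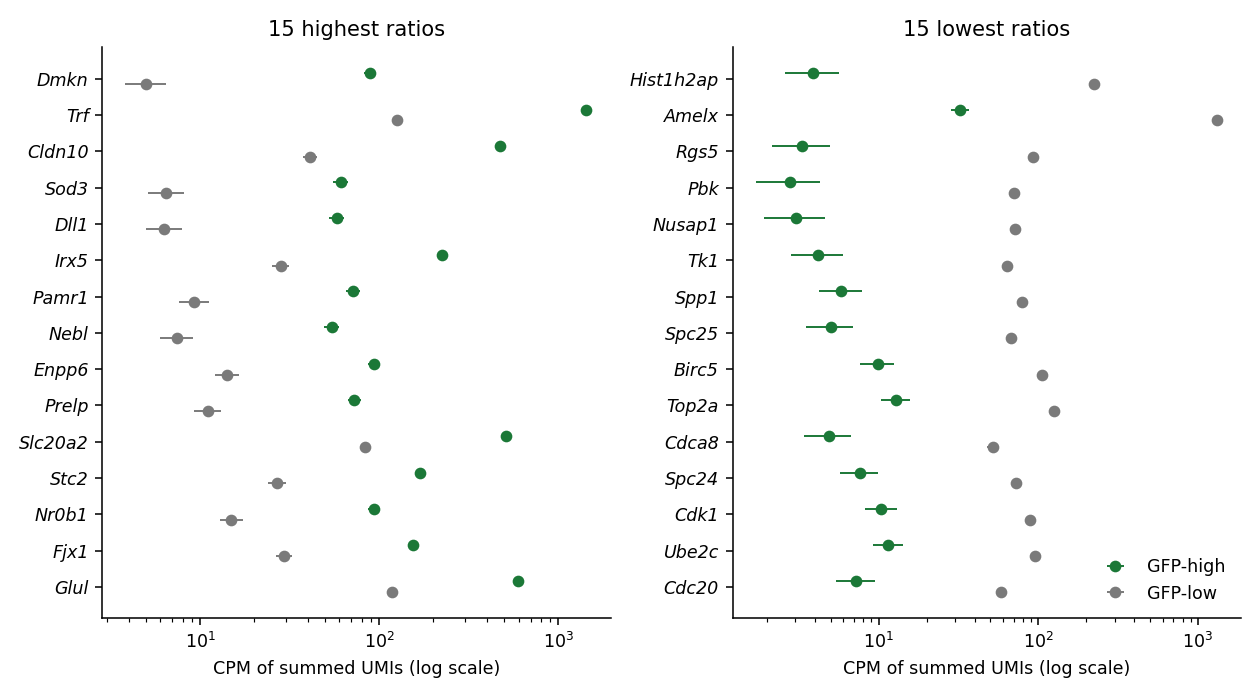
Level of the 15 genes with the highest (left) and lowest (right) log2 ratio, all past 50 CPM and 100 UMIs in the group where they were higher. Points are CPM of summed UMIs on a log axis in GFP-high (green) and GFP-low (grey) cells, and lines are exact 95% Poisson intervals. Trf reached 1433 CPM in GFP-high cells, and the Amelx level of 1314 CPM in GFP-low cells lies to 97.6% in 5 cells of cluster 17.

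The genes furthest below in GFP-high cells were mostly those of dividing cells. Of the 15 lowest, Top2a (topoisomerase of the dividing cell), Birc5 (survivin), Cdk1 (the mitotic kinase), Ube2c and Cdc20 (subunit and activator of mitotic protein degradation), Nusap1, Pbk, Tk1, Spc24, Spc25 and Cdca8 belong to replication or mitosis. Hist1h2ap is a replication histone with near-identical copies, so its own count is uncertain. Top2a stood at 12.7 CPM in GFP-high and 125 CPM in GFP-low cells, 9.78-fold lower (7.92 to 12.2). Birc5 stood at 9.84 and 105 CPM, 10.7-fold lower (8.41 to 13.8).

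Over the proliferation list, 17 of 21 genes were at least 2-fold lower in GFP-high cells and none 2-fold higher, with a median of -2.20. The 4 others were the cyclins Ccnd1 (-0.35) and Ccnd2 (0.07) and the inhibitors Cdkn1a (-0.35) and Cdkn1c (0.29). With clusters 11 and 12 left out, 9 genes of the list were tested, their median was -0.22, and Top2a and Birc5 had log2 ratios of -0.05 and -0.26. With the same setting the count of 2-fold lower genes over all genes was 175, against 277.

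The promoters of Top2a and Ccnb2 (cyclin B2) are shown because the mitotic genes moved together (RefSeq, GRCm38.p6, 250 bases before the start, minus strand, chr11:99024190-99024439 and chr9:70421555-70421804).
Top2a: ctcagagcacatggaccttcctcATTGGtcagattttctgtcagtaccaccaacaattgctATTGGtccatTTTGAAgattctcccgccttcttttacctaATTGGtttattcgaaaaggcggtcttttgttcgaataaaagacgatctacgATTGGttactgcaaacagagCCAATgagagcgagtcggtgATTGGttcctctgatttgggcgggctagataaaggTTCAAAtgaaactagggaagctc
Ccnb2: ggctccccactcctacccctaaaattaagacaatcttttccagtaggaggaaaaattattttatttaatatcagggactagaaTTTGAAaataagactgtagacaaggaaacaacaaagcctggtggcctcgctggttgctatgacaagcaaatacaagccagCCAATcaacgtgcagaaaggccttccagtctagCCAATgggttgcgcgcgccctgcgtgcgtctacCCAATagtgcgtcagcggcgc
Capitals mark the CCAAT box letters CCAAT and the letters TTTGAA, the core of the cell cycle homology region, on either strand. Top2a held 6 of the first and 2 of the second, and Ccnb2 3 and 1. Of the 17 lower proliferation genes, 16 had a promoter in the table, and 14 of these held CCAAT (87.5%) and 7 TTTGAA (43.8%). Among the 5207 tested genes with a promoter the shares were 37.2% and 10.3%, and among all 27025 promoters 34.5% and 16.3%. Over the 154 promoters of the 206 higher genes the shares were 41.6% for CCAAT and 12.3% for TTTGAA.

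Several low genes rested on few cells. Amelx, an enamel matrix gene, had 233 UMIs in GFP-high cells (32.3 CPM) and 16013 in GFP-low cells (1314 CPM). Of the GFP-low UMIs, 97.6% lay in 5 cells of cluster 17, which is dental epithelium-like with 7 cells in all, and in the 3 middle GFP steps Amelx stood between 33.1 and 35.9 CPM. Without clusters 13 to 17 its log2 ratio was 0.03, against -5.30 with them. Rgs5, a pericyte gene, had 95% of its GFP-low UMIs in clusters 13 to 17, which include the mural-like cluster 14. For Spp1 (osteopontin), 5 cells gave 89.4% of the 958 GFP-low UMIs. Of the haemoglobin genes, a single GFP-low cell gave 768 of 817 Hba-a1 UMIs, 674 of 741 Hbb-bs UMIs and 224 of 244 Hba-a2 UMIs.

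Between the 2 ends, most of these genes moved in steps with the reporter. Trf stood at 126, 168, 307, 630 and 1433 CPM over the 5 GFP steps and Cldn10 at 41.1, 55.7, 102, 218 and 473 CPM. Top2a ran the other way, at 125, 94.0, 49.5, 23.5 and 12.7 CPM. Spp1 did not, at 78.6, 8.31, 25.6, 41.6 and 5.82 CPM. The steps held 1266, 1701, 2127, 1008 and 947 cells, with median depths between 7308 and 8732.5 UMIs that were lower at each higher step.

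**Figure D3:**
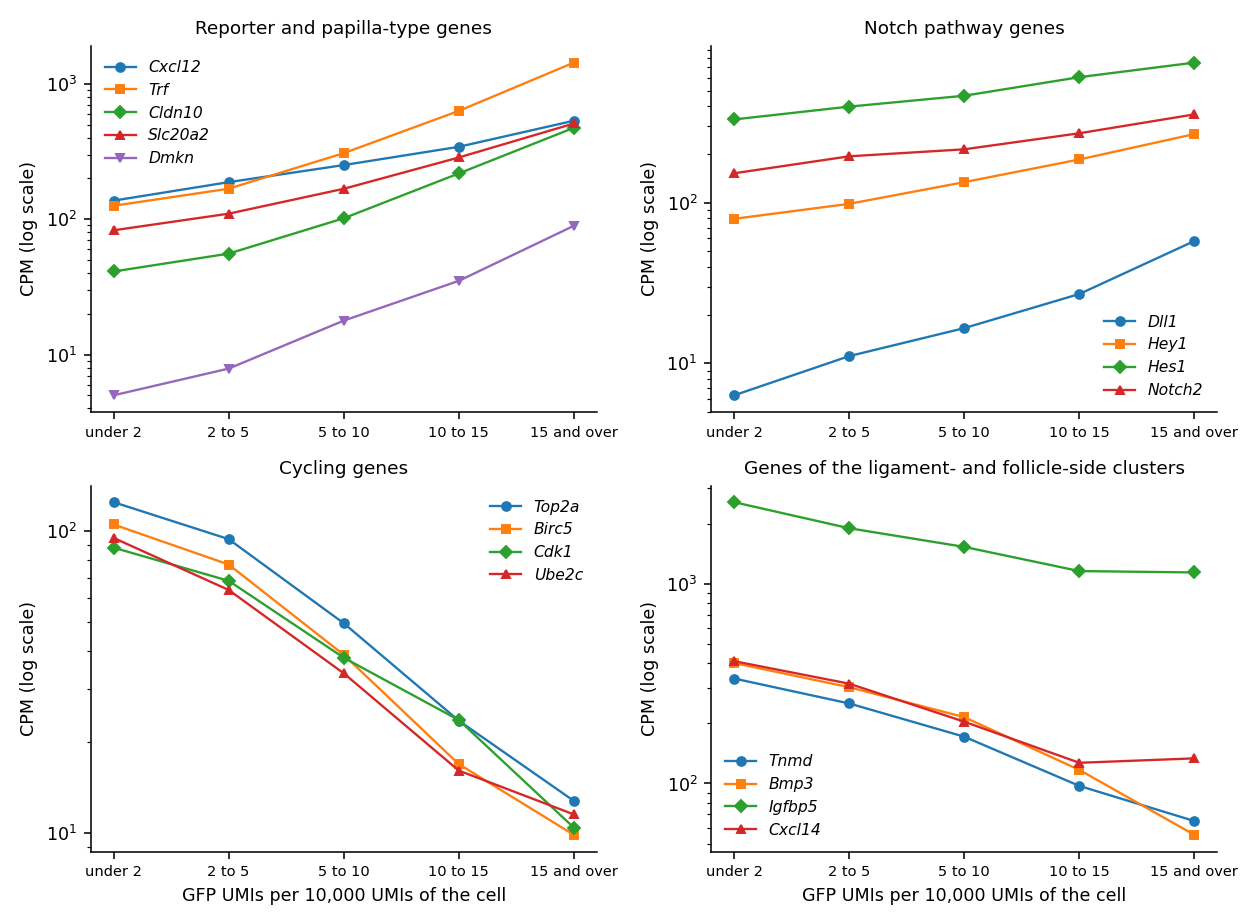
Level of 17 genes over 5 steps of GFP transcript per 10000 UMIs of the cell (x axis, low to high; y axis, CPM of summed UMIs on a log scale). Genes of the upper panels were higher at each step (Cxcl12 from 137 CPM at under 2 to 533 CPM at 15 and over), and the cycling genes were lower at each step.

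Notch receptors are cleaved when a ligand on a neighbouring cell binds, and the freed part switches on Hes and Hey repressors. Of 6 members tested, 4 were at least 2-fold higher in GFP-high cells and none lower, with a median of 1.19 against 0.04 over all genes. The ligand Dll1 (chr17:15367354-15376872, minus strand) stood at 57.8 CPM in GFP-high and 6.32 CPM in GFP-low cells, 9.15-fold higher (7.16 to 11.8). A Dll1 UMI was found in 28.1% of GFP-high and 4.58% of GFP-low cells, and in 12.4% of the 89 endothelial barcodes, a cell type that may express Notch ligands itself.

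The receptor Notch2 stood at 355 CPM in GFP-high and 153 CPM in GFP-low cells (2.33-fold, 2.19 to 2.47). The target Hey1 (chr3:8663359-8667256, minus strand) stood at 268 and 79.4 CPM (3.37-fold, 3.12 to 3.65) and the target Hes1 (chr16:30064384-30067796, plus strand) at 746 and 330 CPM (2.26-fold, 2.17 to 2.35). Notch3 (0.74) and the ligand Jag1 (0.04) lay under 2-fold. Without cluster 0 the log2 ratios of Hey1, Notch2 and Hes1 were 0.93, 0.92 and 0.78, under 2-fold, and that of Dll1 was 1.5. Notch3 is also a mural marker, and Rgs5, which leads the mural-like cluster, was lower in GFP-high cells (3.33 and 92.8 CPM).

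The BMP list held genes that differed in both directions, and antagonists lay on both sides. Of 14 members tested, 4 were 2-fold higher in GFP-high cells and 2 lower, with a median of 0.78. The ligand Bmp2 stood at 555 CPM in GFP-high and 204 CPM in GFP-low cells (2.71-fold, 2.58 to 2.85), while Bmp3, a member of the family known as an antagonist in bone, stood at 55.3 and 401 CPM (7.25-fold lower, 6.54 to 8.05). Bmp7 (0.78) and Bmp4 (0.66) lay under 2-fold. The antagonist Chrdl1 was higher (2.15). Of the response genes, Id4 (1.32) and the inhibitory Smad6 (1.23) were 2-fold higher, and Id1, Id2, Id3, Bambi and Smad7 lay between 0.5 and 0.95.

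The Wnt feedback targets ran lower, 3 of 5 at 2-fold with a median of -1.12. Notum, a secreted enzyme that inactivates Wnt ligands, stood at 5.96 CPM in GFP-high and 39.0 CPM in GFP-low cells (6.55-fold lower, 4.79 to 9.18), and Lef1 and Nkd2 had log2 ratios of -1.2 and -1.12. Of 9 Wnt antagonists tested, Dkk2 (-2.15) and Sfrp1 (-1.13) were 2-fold lower and none 2-fold higher. Of 4 Wnt ligands and R-spondins tested, Rspo1 was lower (-1.21).

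In the hedgehog list, 1 of 6 members passed, the decoy receptor Hhip (33.5 and 115 CPM, -1.75), while the targets Gli1 (-0.99) and Ptch1 (-0.47) did not. In the FGF list the receptors Fgfr1 (1.06) and Fgfr3 (1.33) were 2-fold higher of 5 tested, and Fgfr2 was at -0.56. In the TGF-beta list 2 of 10 were lower, the activin subunit Inhba (-1.77) and the latent binder Ltbp4 (-1.58). In the insulin-like growth factor list 3 of 10 were lower, Igf1 (-1.51) and its binding proteins Igfbp2 (-2.05) and Igfbp5 (-1.17). Igfbp5 was the most abundant of these, at 1139 CPM in GFP-high and 2561 CPM in GFP-low cells.

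Other secreted signals differed in both directions. Of 4 genes tested among the other chemokines and their receptors, 3 were 2-fold lower in GFP-high cells: Cxcl14 (134 and 409 CPM), Cxcl5 (8.73 and 24.4 CPM) and Cxcl1 (92.1 and 193 CPM). Ackr3, the scavenging receptor for Cxcl12, stood at 20.4 CPM in GFP-high and 12.1 CPM in GFP-low cells (0.70, under 2-fold). Of 9 marrow niche factors tested, none was 2-fold higher and the adhesion molecule Vcam1 (-1.2) and the leptin receptor Lepr (-1.89) were lower, while Csf1 (0.78) and Angpt1 (0.80) lay under 2-fold.

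Among neurotrophic genes, the neurturin receptor Gfra2 (243 and 72.5 CPM, 1.73) was higher and the neuropeptide precursor Tac1 (11.9 and 83.7 CPM, -2.71) lower. Of 19 axon guidance genes tested, 2 were higher (Sema5a and Unc5c) and 7 lower. The lower ones included the semaphorins Sema3a (-1.41) and Sema3c (-1.36), the semaphorin receptor Nrp2 (-1.47), Slit2 (-1.16) and its receptor Robo2 (-1.05). Of 9 angiogenic genes tested, Pgf (-2.38), Vegfc (-1.74) and Thbs2 (-1.25) were lower. In the retinoic acid list the synthesis enzyme Rdh10 (1.03) and the reductase Dhrs3 (1.25) were higher of 8 tested, and the binding protein Crabp2 was at -0.83.

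Transcription factors of dental mesenchyme were split. Of 22 tested, the homeobox genes Msx2 (581 and 196 CPM, 2.97-fold higher, 2.82 to 3.12), Dlx3 (154 and 68.7 CPM) and Dlx4 (1.07) were 2-fold higher in GFP-high cells. Runx2, which directs osteoblast differentiation (45.2 and 109 CPM, -1.25), Tfap2b (-1.63), Twist1 (-1.21) and Gsc (-1.08) were lower. Msx1 (0.68), Pax9 (-0.12), Barx1 (0.43), Lhx6 (0.14), Lhx8 (-0.47) and Sp7 (0.27) lay under 2-fold. Of 10 further jaw patterning factors, Six2 was lower (-1.05) and none 2-fold higher.

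Of 20 fibrillar and ligament matrix genes tested, 17 had a log2 ratio below 0, with a median of -0.66 against 0.04 over all genes. Tenomodulin (Tnmd, chrX:133850980-133865577, 64.8 and 335 CPM, 5.17-fold lower, 4.70 to 5.70) and the collagen crosslinker Lox (-1.01) were 2-fold lower. Tenascin C (Tnc, 1.07) was 2-fold higher. Over all genes 4.12% were 2-fold lower and 3.06% 2-fold higher. Col1a1 (-0.90) and Col1a2 (-0.98) lay just under 2-fold. A Tnmd UMI was found in 15.6% of GFP-high and 50.2% of GFP-low cells, against 8.99% of the endothelial barcodes. Of 8 small leucine-rich proteoglycans tested, Prelp (2.61) and Fmod (706 and 220 CPM, 1.68) were higher and Omd (-1.08) and Aspn (-1.04) lower.

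Of 10 mineralisation genes tested, 6 were lower (Mgp, Smpd3, Spp1, Ibsp, Bglap and Bglap2) and Slc20a2 higher. Bglap and Bglap2 are near-identical copies, so their split is uncertain. For Bglap, 5 cells gave 58.8% of the 308 GFP-low UMIs, and 5 cells gave 79.4% of the 68 GFP-high UMIs. Of the UMIs of Mgp in GFP-low cells, 79.7% lay in clusters 13 to 17. Of 14 proteases and inhibitors tested, Adamts1, Adamts2, Adamts5 and Timp1 were lower, between -1.02 and -1.17, and none higher. Of 10 cartilage-type genes tested, Sox9, the cartilage regulator, was higher (232 and 101 CPM, 2.29-fold, 2.12 to 2.46), and Col9a1, Col9a2, Col9a3 and Col2a1 lay between 0.37 and 0.90.

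The cell type markers followed the same division. Dental follicle markers were 2-fold lower in GFP-high cells in 6 of 8 tested (median -1.15) and periodontal ligament markers in 5 of 6 (median -1.56). Moxd1, a follicle marker, stood at 22.6 CPM in GFP-high and 160 CPM in GFP-low cells. The smooth muscle actin gene Acta2 (112 and 703 CPM, -2.64) and Tagln (69.3 and 354 CPM, -2.34) were listed as mural and were among the leading genes of clusters 2 and 5. Of 7 mural markers tested, Rgs5, Tagln and Acta2 were lower, and Kcnj8 (1.33), a channel gene of pericytes, was higher. Papilla or pulp markers were split, with Cldn10, Enpp6 and Slc20a2 higher and Smpd3, Tac1, Igfbp2 and Trps1 lower of 12 tested. All 16 cycling markers tested were lower (377 summed CPM in GFP-high and 1609 in GFP-low cells). Osteoblast or cementoblast markers were lower in 5 of 9 tested and higher in none, and Spp1 and Bglap among these 5 rested mostly on few cells. Of 3 odontoblast markers tested, Smpd3 was lower. Dmp1, a matrix gene of odontoblasts and osteocytes, had 0 UMIs in GFP-high and 26 in GFP-low cells, and Dspp, the defining odontoblast gene, 15 in each.

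Of the markers of other lineages, connective tissue fibroblast genes were lower in 2 of 5 tested (Mfap5 and Ly6a), and of 4 cartilage-type markers tested Sox9 was higher. All 3 dental epithelium markers tested (Amelx, Ambn and Enam) and all 3 erythroid ones (Hbb-bs, Hba-a1 and Hba-a2, each mostly from a single GFP-low cell) were lower in GFP-high cells, and Epcam, used to choose the cells, was at 0 in both groups. The 1 Schwann or glia marker tested, S100b, was lower (-1.57), and the 1 immune marker tested, Lyz2, lay at -0.61. No endothelial marker reached the filter. Of the marrow stroma markers other than Cxcl12, only Lepr was tested, and Adipoq had 1 UMI in each group. The part of these cell types in the ratios was not tested, except where the values without clusters 13 to 17 are given: without those clusters 94 of 98 named genes called 2-fold stayed 2-fold apart, and 1 changed sign.

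Of 16 immediate early and stress genes tested, the heat shock gene Hspa1a was higher (123 and 47.7 CPM, 1.34) and none was 2-fold lower. Fos stood at 0.28 and Egr1 at 0.27. Of 7 interferon genes tested, Isg15 was higher (41.4 and 8.78 CPM, 4.72-fold, 3.77 to 5.94), and 5 cells gave 25.4% of its UMIs in GFP-high and 35.5% in GFP-low cells. Of 4 osteoclast regulators tested, Sema3a was lower and none 2-fold higher. Adrenomedullin (Adm, 2.28) and the collagen hydroxylase P4ha2 (1.06) were higher of 10 glycolysis and hypoxia genes tested.

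The same cells were then compared inside clusters, by a ratio pooled over clusters so that each cell is set against cells of its own cluster. By this ratio 11 genes were at least 2-fold higher (0.164%) and 27 at least 2-fold lower (0.402%) of 6722. Of the 206 genes higher over all cells, 8 were still 2-fold higher, and their median log2 ratio was 0.23, against 1.34 over all cells. Of the 277 lower genes, 26 were still 2-fold lower, with a median of -0.26, against -1.63. Cxcl12 had a log2 ratio of 1.17 inside clusters and 1.95 over all cells. Of the 98 named genes called 2-fold, 13 were 2-fold apart inside clusters and 16 had the opposite sign there, among them Igf1 (0.35), Cxcl1 (0.32), Vcam1 (0.12), Hhip (0.22) and Smad6 (-0.13).

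The medians of several lists lay nearer 0 inside clusters, at 0.35 for Notch, 0.13 for BMP, -0.32 for Wnt feedback targets and -0.17 for proliferation. The sign turned for the insulin-like growth factor axis (0.21 inside clusters and -0.39 over all cells), fibrillar and ligament matrix (0.07 and -0.66), proteases (0.10 and -0.57) and axon guidance (0.05 and -0.50). It also turned for angiogenic factors (0.02 and -0.43), hedgehog (0.03 and -0.34), Wnt antagonists (0.30 and -0.27), jaw patterning factors (0.12 and -0.19) and glycolysis and hypoxia (-0.05 and 0.31). Of the marker lists it turned for dental epithelium, Schwann or glia and connective tissue fibroblast. The mineralisation list had a median of -0.76, against -1.21 over all cells.

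Conversely, each cluster was given its own mean level and only the numbers of UMIs per cluster were allowed to differ between GFP-high and GFP-low cells. This makeup alone gave medians of 1.2 for the 206 higher genes and -1.38 for the 277 lower genes. It put 143 and 230 of them at 2-fold or more in their own direction, and 205 and 275 on the same side of 0. For Msx2 it gave 1.5 of 1.56, while the ratio inside clusters was 0.00. For Hey1 it gave 1.66 of 1.74, against 0.13 inside clusters, and for Top2a -2.87 of -3.19, against -0.50. The clusters were made from these same genes, so the 2 values describe where a difference lies and are not a test.

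**Figure D4:**
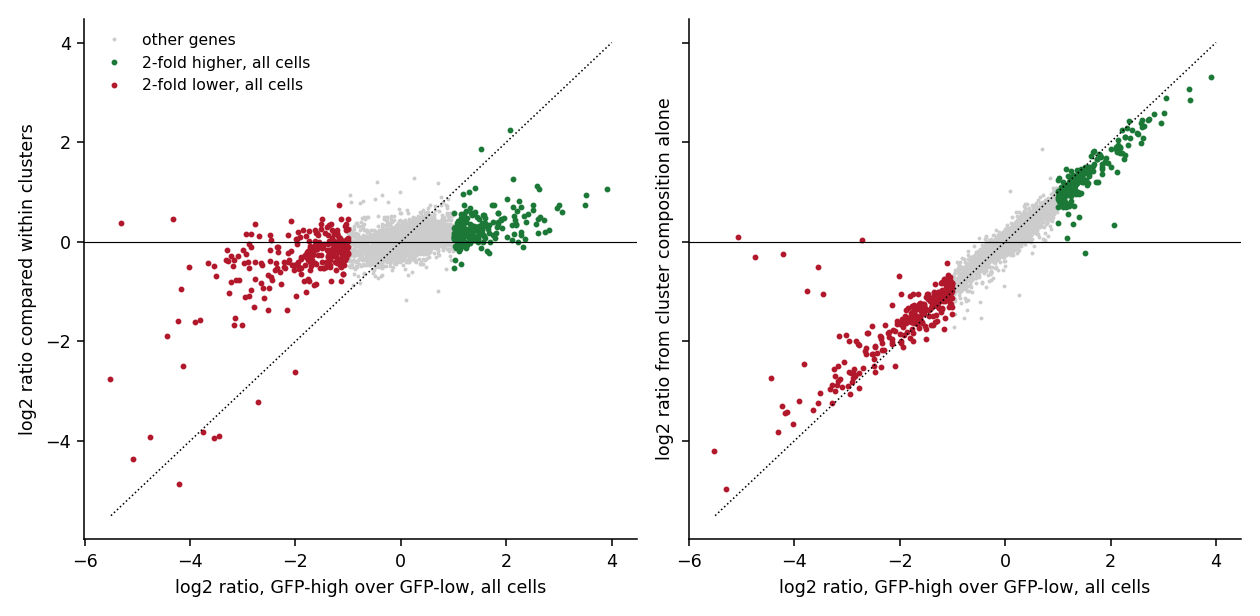
Log2 ratio of each of 6722 genes over all cells (x axis) against the ratio compared inside clusters (left) and the ratio that cluster composition alone gives (right). Green points are the 206 genes at least 2-fold higher and red points the 277 at least 2-fold lower over all cells, and the dotted line marks equal values. The points lie near 0 on the left and near the dotted line on the right.

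Tac1 was an exception, with a makeup value of 0.03 and a log2 ratio of -3.22 inside clusters. In cluster 1, which Tac1 leads, it stood at 58.7 CPM in 97 GFP-high cells (42 UMIs) and 865 CPM in 89 GFP-low cells (519 UMIs). Smpd3 (-3.82) and the bone matrix gene Ibsp (-2.61) were also lower inside clusters, while makeup gave both of them under 2-fold. The Spp1 value of -3.94 rests on the few cells named above: a single cell gave 689 of its 958 GFP-low UMIs, and in clusters 1, 3, 4 and 6 its log2 ratios were 0, 1.05, 1.49 and 2.12. The Wnt regulators Notum (-1.38) and Dkk2 (-1.37) kept a 2-fold difference inside clusters as well. The highest ratio inside clusters was that of iCreER (2.25), a feature the genotype label does not name and 1 of the 11 counted as higher. The others at least 2-fold higher inside clusters, named after their values were seen, were Krt18 (1.86), Sfrp4 (1.29), Isg15 (1.25), Mmp13 (1.2), Mgst1 (1.18), C2 (1.12), Wfikkn2 (1.07), Dmkn (1.07), Prelp (1.05) and Nell1 (1.0). Of these, Sfrp4 (0.25), Mmp13 (-0.46) and Mgst1 (0.71) were under 2-fold over all cells.

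Clusters 1, 3, 4 and 6 held at least 50 cells of both groups, with 97, 62, 52 and 50 GFP-high and 89, 97, 92 and 108 GFP-low cells. Of 1506 genes tested in all 4, 1 was at least 1.5-fold higher in every cluster (0.0664%) and none was at least 1.5-fold lower in every cluster (0%). The gene was Gfra2 (chr14:70890120-70979838, plus strand), whose product binds neurturin. It stood at 150 and 71.7 CPM in cluster 1, at 312 and 159 CPM in cluster 3, at 244 and 152 CPM in cluster 4 and at 388 and 190 CPM in cluster 6, GFP-high value first. The ratios were 2.09 (1.45 to 3.05), 1.96 (1.52 to 2.53), 1.61 (1.22 to 2.11) and 2.04 (1.62 to 2.57). Cxcl12 itself was 2.45-, 2.18-, 1.47- and 2.29-fold higher in these clusters. Msx2 did not follow, with log2 ratios of -0.35, -0.18, -0.16 and -0.06.

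A library the choice of cells did not use was split in a related way, but by another transcript. At P25 the cells were grouped by Cxcl12 itself, with the limits set for GFP. This gave 434 Cxcl12-high cells (median 8222.5 UMIs) and 3263 Cxcl12-low cells (median 17006 UMIs). By Cxcl12, only 38 of the 947 GFP-high cells at day 6 (4.01%) reached the upper limit. Cxcl12-high cells at P25 were thus a more extreme choice by Cxcl12 than GFP-high cells at day 6. In that library 15.1% of 6768 genes were at least 2-fold higher in Cxcl12-high cells and 6.29% lower. Of the 206 genes higher in GFP-high cells at day 6, 183 were tested there, and 160 were 2-fold higher and 2 lower, with a median of 2.42. Of the 277 lower genes, 158 were tested, and 96 were 2-fold lower and 15 higher, with a median of -1.60. Cldn10 stood at 970 CPM in Cxcl12-high and 25.7 CPM in Cxcl12-low cells at P25, and Trf at 3111 and 36.6 CPM. Slc20a2 stood at 632 and 49.5 CPM and Dll1 at 34.7 and 4.09 CPM.

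A total of 32 Cxcl12-high and 7 Cxcl12-low cells at P25 held a UMI of Adipoq, a marker of marrow stroma and fat. Without them 164 of 184 tested genes of the higher set were 2-fold higher and 102 of 155 of the lower set were lower. Cell types at P25 differ in their makeup too, and the part of makeup in these ratios was not tested.

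Of the named genes, 8 went opposite ways in the 2 libraries, lower in GFP-high cells at day 6 and higher in Cxcl12-high cells at P25, each at 2-fold or more. They were Cxcl14, Vcam1, Lepr, Igfbp5, Vegfc, Igfbp2, Igf1 and Cxcl1. Of all 158 lower genes tested at P25, 15 were 2-fold higher there, against 15.1% of all 6768 genes. Of the 183 higher genes tested, 2 were 2-fold lower there, against 6.29% of all genes. Genes that went opposite ways were thus not more frequent than such ratios over all genes. Igfbp5 stood at 4254 CPM in Cxcl12-high and 793 CPM in Cxcl12-low cells at P25, and Cxcl14 at 121 and 13 CPM. Without the Adipoq cells the P25 log2 ratio of Lepr was 1.06, against 3.11 with them, that of Vcam1 was 1.7, against 3.08, and those of Vegfc (0.73) and Cxcl1 (0.4) were under 2-fold. Lepr and Vegfc were then under the filter on low values. The difference between the libraries was not tested. Age, genotype, the reporter sorted for and the transcript used to group the cells cannot be told apart between them.

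**Figure D5:**
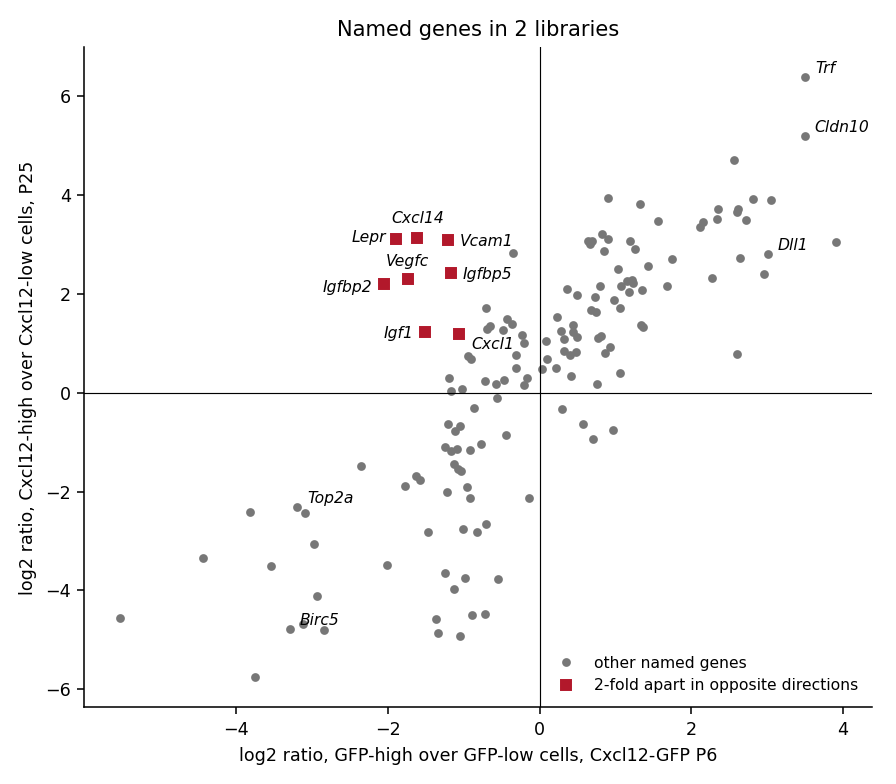
Log2 ratio of the named genes tested in both libraries, GFP-high over GFP-low cells at day 6 (x axis) against Cxcl12-high over Cxcl12-low cells at P25 (y axis). Red squares are the 8 named genes at least 2-fold apart in opposite directions, and Trf and Cldn10 lie at the upper right with P25 values of 6.37 and 5.19.

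In Cxcl12-creER P6 the same limits gave 53 Cxcl12-high cells with 82143 UMIs in all, against 776 Cxcl12-low cells with 3591860 UMIs. Only 32 of the 206 higher genes could be tested, with 4 higher and 12 lower, against 2.25% higher and 43.0% lower over the 2928 genes tested. Trf stood at 60.9 CPM in Cxcl12-high cells (5 UMIs) and 11.4 CPM in Cxcl12-low cells (41 UMIs), and Cldn10 had 2 and 40 UMIs. Neither reached the filter, so no direction is drawn from this library.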

How the data were processed

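The authors deposited raw counts of UMIs per gene and barcode for 3 droplet libraries. Per the submitters' processing notes, mm10, Cell Ranger and Seurat were used, with no settings given here. The feature, gene and barcode name files hold other, non-numeric content as deposited. Cells were loaded from sorted suspensions of molar pulp and periodontium on a 3′ droplet platform, per the labels' protocols. Whether the counting used strand is not given in the sources used here.

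Barcodes were kept by the limits given above; 3 fell under 500 genes and 8 over 15% mitochondrial UMIs, and Ptprc, Pecam1 and Epcam removed 5, 269 and 199 (overlaps counted under each). Doublets were kept, and removing the 424 highest scores of a reimplemented Scrublet scheme (2 simulated doublets per cell, 0.8% per 1000 cells) was an alternative; all 206 cells of cluster 13, which mixed follicle and papilla genes, were among them. Counts were summed per group and scaled to CPM. Clusters used 2000 variable genes, 30 principal components, 15 neighbours and Leiden resolution 1.0 with leidenalg 0.10.2 and igraph 0.11.9. Clusters were named from marker lists only where at least 3 markers were 2-fold above the median of the other clusters. For that step 10 CPM was added to both levels. Summing, scaling and intervals used scipy 1.17.1, pandas 2.3.3 and numpy 2.4.6 under Python 3.11.15, components came from scikit-learn 1.9.0, and plots from matplotlib 3.10.9. The ratio inside clusters is a Mantel-Haenszel ratio over clusters, tested on simulated data. Intervals are exact: Poisson for CPM, conditional binomial for ratios, Clopper-Pearson for shares.

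The cells, genes and lists (27 gene lists and 15 marker lists) were chosen with earlier results of these data known. Named genes were GFP, Cxcl12, the 15 highest and 15 lowest ratios at 50 CPM and 100 UMIs or more (Gm- and Rik-named, sex-specific, haemoglobin, ribosomal and mitochondrial genes left out), up to 6 members of each list with the largest ratios, and up to 10 genes apart the same way in every cluster compared. Other members are given from the lists' counts, and some results are not reported here. Promoters and coordinates come from RefSeq and GENCODE M21 on GRCm38.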

Additional observations from a re-analysis of the deposited data

Results flagged for a closer look

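Of the named genes, 8 were at least 2-fold lower in GFP-high than GFP-low cells at day 6 and at least 2-fold higher in Cxcl12-high than Cxcl12-low cells at P25. Of all 158 lower genes tested at P25, 15 were 2-fold higher there, against 15.1% of all 6768 genes. The difference between the libraries was not tested. The log2 ratios at day 6 were -1.61 for Cxcl14, -1.2 for Vcam1, -1.89 for Lepr, -1.17 for Igfbp5, -1.74 for Vegfc, -2.05 for Igfbp2, -1.51 for Igf1 and -1.06 for Cxcl1. At P25 they were 3.12 for Cxcl14, 3.08 for Vcam1, 3.11 for Lepr, 2.42 for Igfbp5, 2.29 for Vegfc, 2.19 for Igfbp2, 1.22 for Igf1 and 1.19 for Cxcl1.

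Features of transgenes that the Cxcl12-GFP/+ label does not name held UMIs in the day 6 library, above a floor set at 3 counts. The inducible recombinase feature iCreER had 897 UMIs in 397 cells, at 23.8 CPM in GFP-high and 4.92 CPM in GFP-low cells. It was found in 14.2% of cells of cluster 1, 13.2% of cluster 3, 13% of cluster 11 and 12.6% of cluster 8, against 0.264% of cluster 0 and 0.426% of cluster 2. These shares did not follow the GFP UMIs per Cxcl12 UMI throughout: cluster 9 had 5.31% of cells and 4.37 GFP UMIs per Cxcl12 UMI, cluster 13 had 10.7% and 2.80, and cluster 11 had 2.94. The feature tdT-WPRE had 1486 UMIs in 1254 cells, at 23.0 CPM in GFP-high and 19.6 CPM in GFP-low cells. EYFP had 64 UMIs, 24 of them in GFP-high cells and 1 in GFP-low cells, and CreER-WPRE had 5. The EYFP UMIs stood beside 47230 of GFP in this library, and at P25 75 EYFP UMIs stood beside 117741 of GFP. The source of the EYFP UMIs was not tested. The features mCherry, Cre and CreER had 0 UMIs. The P25 library, which is labelled with creER and tdTomato, had 39276 UMIs of tdT-WPRE and 269 of iCreER.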

How the results depend on the processing

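With limits of at least 20 against under 1 GFP UMI per 10000, 337 genes were higher and Cxcl12 had a log2 ratio of 2.33; with 10 against 5, 87 were higher, 142 lower and Cxcl12 was at 1.37. A filter of 50 CPM and 100 UMIs left 137 higher and 130 lower, and no CPM filter 473 and 741. Grouping by Cxcl12 UMIs gave 119 and 571, and no Cxcl12 value. The mean of ratios inside clusters gave 1 and 0, with Cxcl12 at 1.04, and only genes tested in all 4 clusters have a value there. Without the cycling clusters 175 genes were lower and Cxcl12 was at 1.83. Alternatives chosen after seeing the data were the ratio inside clusters (11 higher, 27 lower, Cxcl12 1.17), leaving out cluster 0 (97 higher, Cxcl12 1.55), leaving out clusters 13 to 17, leaving out cells with iCreER or tdT-WPRE UMIs, and P25 without Adipoq cells. The share of GFP-high cells in cluster 0 was 74.7% at 10 and 33.6% at 20 GFP UMIs per 10000, and 38.4% in the matching cluster at resolution 0.5.

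The sign turned by the mean inside clusters for Msx2 (-0.19), Sfrp1 (0.20), Igfbp5 (0.74) and the medians of mineralisation (0.0050 over 1 gene) and proliferation (0.046 over 3), and with the filter of 50 CPM for mineralisation (0.0099 over 5). It also turned by that mean for the medians of the insulin-like growth factor axis (0.60), fibrillar and ligament matrix (0.07), proteases (0.15), axon guidance (0.17), proteoglycans (-0.25) and the markers of follicle (0.47), ligament (0.48), osteoblast (0.0050), cycling (0.047) and connective tissue fibroblast cells (-0.69), each over 1 to 11 genes. By the pooled ratio inside clusters it turned for Smad6 (-0.13), Adamts2 (0.25), Aspn (0.026), Six2 (0.35), Cxcl1 (0.32), Gsc (0.017), Slit2 (0.068), Adamts5 (0.74), Vcam1 (0.12), Rspo1 (0.16), Igf1 (0.35), Vegfc (0.020), Hhip (0.22), Cdc20 (0.16), Ube2c (0.16) and Amelx (0.37), and without clusters 13 to 17 for Amelx (0.031). The cause was not tested. Under the other alternatives, which included 10% mitochondrial UMIs, 5000 UMIs, thinning, doublet removal, per-cell means and a pseudocount of 5 CPM, none of the named genes called 2-fold changed sign. No paired analysis was possible because each group is 1 library. A cell of median depth in GFP-low has 1 GFP UMI, so depth limits the order of cells near that end.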
